A study of Homo sapiens with 4 samples.

Results

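RNA-seq of U251MG cells with *FLI1* knockdown is described here as 1 comparison, the library of shFLI1 cells against the library of control cells. These are 2 of the 4 libraries of the series, and the other two are the same pair of conditions in U87MG cells. U251MG is an established human glioblastoma cell line. Control cells, titled shControl, had per the labels received lentivirus of the empty vector pGreen, and shFLI1 cells lentivirus carrying shRNA against *FLI1*, for which the study's methods list 2 target sequences. Both kinds of cell received polybrene during infection and puromycin for selection, and stable mixed populations rather than single clones were used. Each arm is 1 library, so no difference below has a replicate check and no P-value is given. Genes were the members of the comparison, and a gene was measured when its summed count reached 100 in at least 1 of the U251MG libraries. Of 46660 gene identifiers in the deposited table, 12129 were measured, of which 11862 had a gene symbol.

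FLI1 is a transcription factor of the ETS family, whose members bind DNA sites around a GGAA core, and it is best known from blood cell development, endothelium and Ewing sarcoma. In glioblastoma cells, growth factor signalling through RAS and ERK is read out by immediate early genes such as those of the AP-1 factors, and by the phosphatases that ERK induces against itself. Lipid supply in the same cells depends on the SREBP factors, which switch on cholesterol and fatty acid synthesis genes when membrane sterol is low. The interferon-linked genes of these libraries were left out of the accounts below and are given once for scale. Of 190 listed, 137 were measured, with 107 lower past 2-fold, 0 higher and a median log2 fold change of -1.93.

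The targeted gene was checked first. *FLI1* (Entrez gene 2313, chromosome 11 of GRCh38, 128685132 to 128813267) had 216 counts in the control library and 111 in the shFLI1 library. After scaling these were 12.1 and 3.71 CPM (read counts corrected for library depth), so the shFLI1 library held 30.6% of the control level. The log2 fold change, on log2 CPM with a prior count of 2, was -1.68, with a 95% Clopper-Pearson interval of -2.05 to -1.37. All intervals below are of this kind. They come from the read counts of the 2 libraries and cover counting error only, since PCR reads without molecular identifiers are not independent molecules.

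Summed counts were 18108612 in the control and 28891055 in the shFLI1 library, which was thus 1.6 times as deep. A count of 100 corresponded to 5.61 CPM in control and 3.34 CPM in shFLI1 cells, so the minimum admitted genes at a lower level when they were higher in shFLI1 cells. The labelled cell type was checked against marker genes. Of 8 markers of astrocytic glioma cells, 7 reached 100 counts, with a summed level of 8420 CPM in control and 9380 CPM in shFLI1 cells. No marker of macrophages or microglia, T cells or B cells reached 100 counts, and *CD8A* and *ITGAM* had 3 counts or fewer in both libraries. The macrophage list summed to 1.51 and 2.54 CPM. Of 6 fibroblast markers, *COL1A1*, *COL1A2* and *PDGFRB* reached 100 counts, and the list summed to 2210 CPM in control and 1760 CPM in shFLI1 cells, while *DCN* had 3 counts or fewer. Of 6 endothelial markers *KDR* reached 100 counts, and the list summed to 7.68 and 14.7 CPM. Of 6 neuron markers *GAD1* and *SYT1* did, and the list summed to 36.4 and 30.6 CPM. The part of other cell types in the results was not tested. In bulk RNA, fewer cells that express a gene and less of its RNA per cell cannot be told apart.

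Among the 12129 measured genes, 135 were higher and 265 lower past 2-fold in shFLI1 cells, which is 1.11% and 2.18% of those measured. Without the interferon-linked list, 158 of 11992 genes were lower, or 1.32%. The median log2 fold change over all measured genes was 0.01, and the central part of the distribution, from the lower to the upper quartile, ran from -0.19 to 0.22. Scaling to total counts in place of TMM moved every gene by 0.074 on the log2 scale and gave 186 higher and 237 lower genes. A minimum mean level of 5 CPM in place of the count minimum left 85 higher and 234 lower genes. Genes higher past 2-fold had a median level of 7.73 CPM over both libraries, against 33.0 CPM for all measured genes, and 28 of the 135 were identifiers without a symbol. The lower genes outside the interferon list had a median level of 13.7 CPM. When RefSeq mRNA records alone were summed, 84 of the higher genes were still measured and 81 of them stayed past 2-fold, as did 242 of 248 lower genes.

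**Figure D1:**
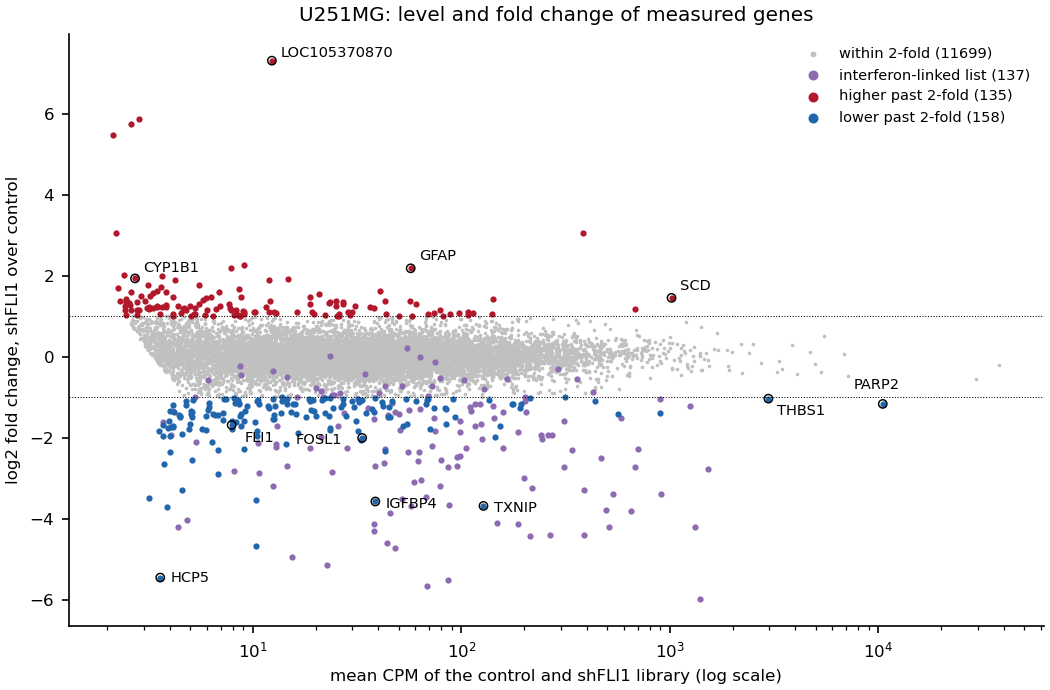
Level and fold change of every measured gene in U251MG cells. The horizontal axis gives the mean CPM of the 2 libraries on a log scale and the vertical axis the log2 fold change of shFLI1 over control, with dotted lines at 2-fold. Each point is 1 gene, purple points are the 137 measured genes of the interferon-linked list, and the 135 higher genes in red lie mostly at the low end of the level axis. Named points were labelled for orientation, some of them after their values were seen.

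In the cholesterol synthesis list most members lay above 0, with 1 past 2-fold. Of 26 listed cholesterol genes 25 were measured, 22 of them above 0, with a median log2 fold change of 0.33 against 0.01 for all genes. The member past 2-fold, against a background of 1.11% higher genes, was *INSIG1*, the sterol sensor that holds SREBP precursors in the endoplasmic reticulum and is itself an SREBP target. It went from 38.7 CPM in control to 77.7 CPM in shFLI1 cells, a log2 fold change of 1.00 (0.88 to 1.13). *DHCR7*, which makes cholesterol from its immediate precursor, went from 58.3 to 109.7 CPM (0.91, 0.81 to 1.01). *LSS*, the enzyme that closes the sterol ring system, went from 93.8 to 167.1 CPM (0.83, 0.75 to 0.91). The early pathway enzymes *MVD* and *MVK* had log2 fold changes of 0.76 and 0.64. The members below 0 were close to it, the lowest at -0.15.

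Of 22 listed fatty acid genes 19 were measured, 13 above 0 and 6 below, with a median log2 fold change of 0.16, inside the quartiles of all measured genes. The member past 2-fold was *SCD* (chromosome 10, 100347233 to 100364826), the desaturase that makes oleic acid, which went from 543.8 CPM in control to 1491.9 CPM in shFLI1 cells. Its log2 fold change was 1.46 (1.42 to 1.49), and it had 44677 counts in shFLI1 cells. *FASN*, fatty acid synthase, went from 845.3 to 1531.6 CPM (0.86, 0.83 to 0.88). *SREBF1*, which encodes the SREBP factor of fatty acid genes, went from 258.4 to 463.1 CPM (0.84, 0.79 to 0.89). *SREBF2*, named after its value was seen, encodes the SREBP factor of cholesterol genes and had a smaller log2 fold change, 0.25 (0.18 to 0.31). *ACSL3* and *ACACA*, which activate fatty acids and make malonyl-CoA, had 0.67 and 0.55. *ELOVL2*, an elongase of polyunsaturated fatty acids, was the lowest member at -0.52 (-0.84 to -0.22). The cholesterol median was 0.31 and the fatty acid median 0.26 after the trend with transcript length and GC content was removed.

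In U87MG cells, from their own pair of libraries, the same lists had medians below 0. The cholesterol list had -0.29 over 25 genes measured in both lines, with 5 above 0, and the fatty acid list had -0.17 over 18. *SCD* had a log2 fold change of -0.57 (-0.61 to -0.54) there and *INSIG1* -0.87 (-1.0 to -0.74). With 1 library per arm in each line, the difference between the lines could not be tested.

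**Figure D2:**
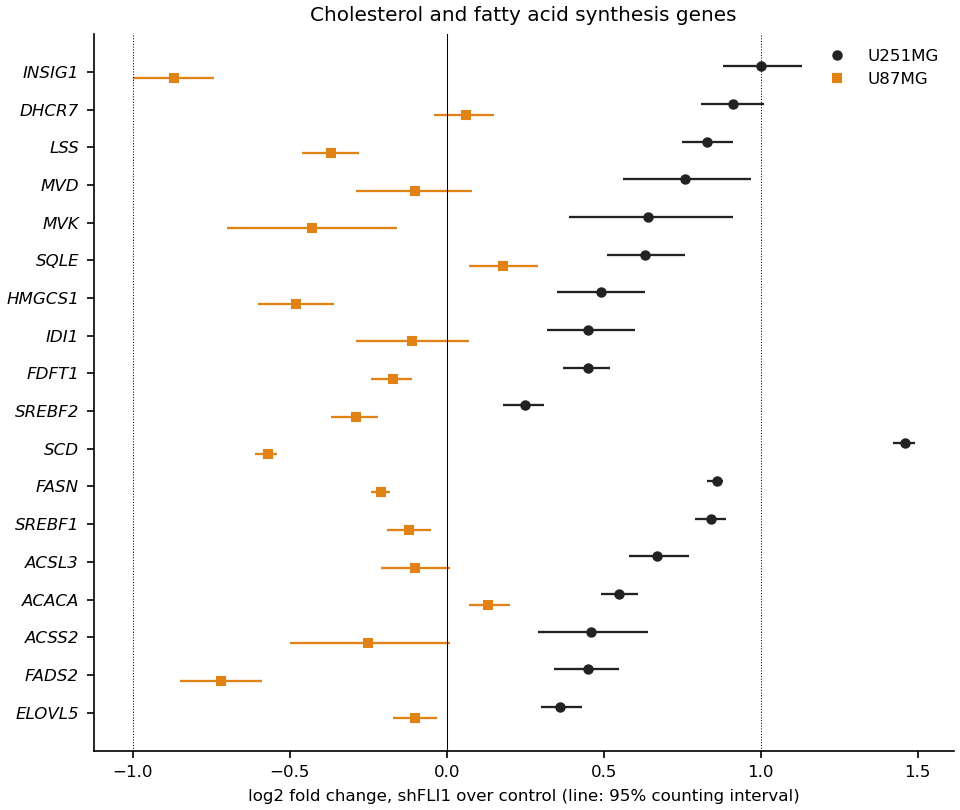
Log2 fold change of shFLI1 over control for 18 lipid synthesis genes, with U251MG as black circles and U87MG as orange squares. Horizontal lines are 95% counting intervals, the solid vertical line marks 0 and the dotted lines 2-fold. All 18 genes lie above 0 in U251MG, while the U87MG values run from -0.87 for *INSIG1* to 0.18 for *SQLE*. The genes drawn were picked after their values were seen and include no member below 0 in U251MG.

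Promoter windows of *INSIG1*, *LSS*, *SCD* and *SREBF2* are shown so that the sequence can be read beside the values. Each window shown holds the letters CCAAT, and windows of these lists without them are not shown. The windows are RefSeq sequences of GRCh38.p14 from 250 bases before to 50 bases after a gene's start, and 9778 of the measured genes had at least 1, for 14321 windows. The letters CCAAT were searched on both strands, and capitals mark every match in the *INSIG1*, *LSS* and *SCD* windows. CCAAT is the binding motif of NF-Y, a factor that is known to act beside SREBP at sterol genes. The *SREBF2* window was chosen because it is the only window of the cholesterol list that holds TCACNCCAC, a form of the sterol regulatory element, and capitals mark only that motif in it, so its own CCAAT match is in lower case. On the minus strand of a window the CCAAT motif reads ATTGG. The windows are *INSIG1* at chr7:155297628-155297927 on the plus strand, *LSS* at chr21:46228725-46229024 on the minus strand, *SCD* at chr10:100346983-100347282 on the plus strand and *SREBF2* at chr22:41832855-41833154 on the plus strand.
INSIG1: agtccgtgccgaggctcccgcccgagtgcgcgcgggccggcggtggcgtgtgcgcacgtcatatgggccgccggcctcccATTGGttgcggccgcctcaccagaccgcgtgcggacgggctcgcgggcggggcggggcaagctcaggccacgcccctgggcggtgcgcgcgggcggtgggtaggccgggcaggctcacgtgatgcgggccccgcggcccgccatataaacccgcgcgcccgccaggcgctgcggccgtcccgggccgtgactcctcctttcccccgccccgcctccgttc
LSS: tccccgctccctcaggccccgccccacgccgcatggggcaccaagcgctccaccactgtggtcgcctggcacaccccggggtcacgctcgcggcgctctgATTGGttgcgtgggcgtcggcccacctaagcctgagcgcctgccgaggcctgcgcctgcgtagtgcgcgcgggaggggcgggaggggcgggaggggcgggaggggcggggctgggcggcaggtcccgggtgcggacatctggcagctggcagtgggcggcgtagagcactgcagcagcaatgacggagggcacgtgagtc
SCD: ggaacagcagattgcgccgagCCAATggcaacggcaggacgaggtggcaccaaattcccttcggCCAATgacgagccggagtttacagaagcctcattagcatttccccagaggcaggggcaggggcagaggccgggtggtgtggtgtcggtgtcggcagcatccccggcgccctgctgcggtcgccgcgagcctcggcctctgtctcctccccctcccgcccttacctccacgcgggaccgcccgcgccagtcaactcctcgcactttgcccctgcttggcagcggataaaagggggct
SREBF2: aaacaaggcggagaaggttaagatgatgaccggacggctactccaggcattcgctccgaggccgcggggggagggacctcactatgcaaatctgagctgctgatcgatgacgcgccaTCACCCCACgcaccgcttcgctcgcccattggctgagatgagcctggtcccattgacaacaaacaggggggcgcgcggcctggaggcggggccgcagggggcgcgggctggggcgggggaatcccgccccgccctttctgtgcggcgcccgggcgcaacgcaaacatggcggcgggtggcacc

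CCAAT was present in 18 of 24 windows of the cholesterol list, or 75%, and in 15 of 28 windows of the fatty acid list, or 53.6%. Over all windows of measured genes the share was 35.4%. It was present in 76.5% of windows of the mitosis list, whose genes had a median log2 fold change of 0.04. The sterol regulatory element in the form searched was in 1 of 24 windows of the cholesterol list and in 1.05% of all windows of measured genes. A match says only that the letters are present.

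Of 24 listed ERK feedback and target genes 23 were measured, 19 below 0, with a median log2 fold change of -0.48, and 4 were lower past 2-fold where the background of lower genes was 2.18%. The largest difference was in *FOSL1* (chromosome 11, 65892049 to 65900545), the AP-1 subunit FRA1 that accumulates under sustained ERK activity. The control library held 953 counts of it and the shFLI1 library 398, which scaled to 53.5 and 13.3 CPM. The log2 fold change of *FOSL1* was -2.0 (-2.18 to -1.84). *DUSP4*, a nuclear phosphatase of ERK, went from 119.6 to 49.4 CPM (-1.28, -1.37 to -1.18). *DUSP1*, a phosphatase of the stress kinases, went from 43.1 to 21 CPM (-1.03, -1.19 to -0.88). *DUSP10* had 229 and 143 counts and a log2 fold change of -1.41 (-1.74 to -1.12), which became 0.07 when the deposited FPKM values were used, as log2 of the value plus 1. *DUSP6*, the cytoplasmic ERK phosphatase, was named after its value was seen and had 177 and 230 counts, a log2 fold change of -0.37 (-0.66 to -0.08).

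The AP-1 and immediate early list shares 4 measured genes with it, *IER3*, *FOSL1*, *EGR1* and *MYC*. Of 29 listed, 22 were measured, 18 below 0, with a median of -0.52, and *FOSL1* and *JUNB* were lower past 2-fold. *JUNB* went from 82.6 to 38.5 CPM (-1.10, -1.21 to -0.99). *JUN* had -0.72, and *EGR1*, the zinc finger factor induced within minutes of growth factor stimulation, had -0.74 (-0.96 to -0.54). *CCN1*, a secreted matrix-associated protein, had -0.82. *NR4A2*, an orphan nuclear receptor, was the highest member at 0.77 (0.36 to 1.23), with 61 and 177 counts. The medians of the ERK and AP-1 lists were -0.44 and -0.42 after the trend with length and GC content was removed, and -0.15 and -0.36 with the deposited FPKM values.

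In U87MG the ERK list had a median of 0.23 over 22 genes, with 14 above 0, and the AP-1 list had -0.35 over 18. *EGR1* had a log2 fold change of 1.04 (0.83 to 1.26) there and *FOSL1* -0.09 (-0.26 to 0.07). The difference between the lines was not tested.

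**Figure D3:**
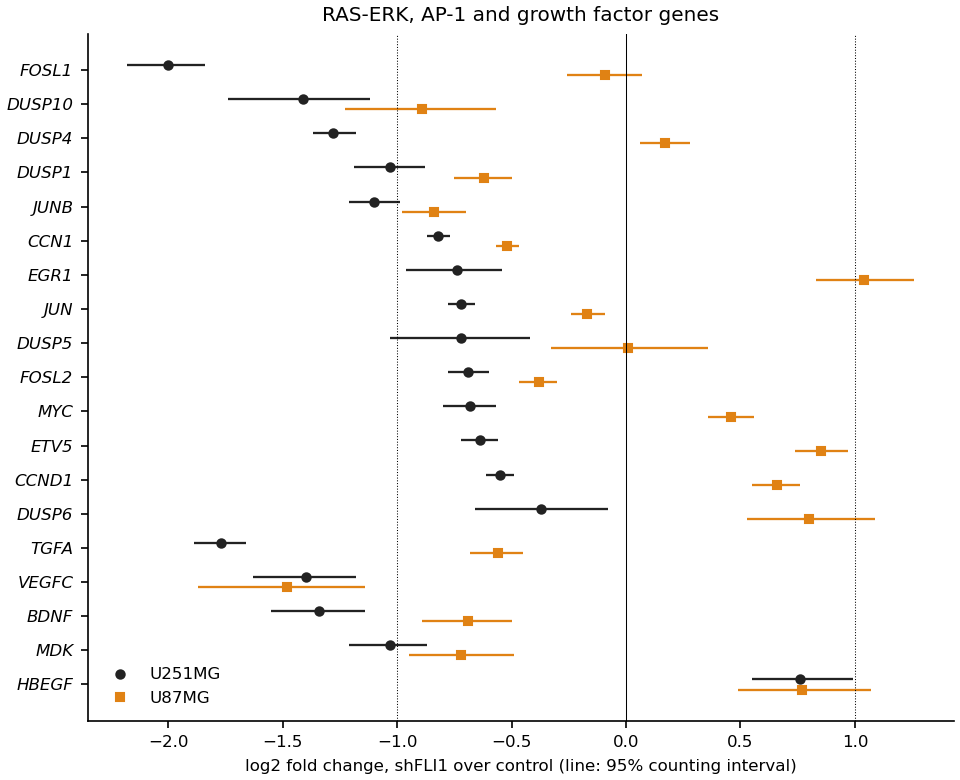
Log2 fold change of shFLI1 over control for 19 genes of ERK feedback, AP-1 and growth factor ligands, with U251MG as black circles, U87MG as orange squares and 95% counting intervals as lines. In U251MG every gene drawn except *HBEGF* lies below 0. In U87MG, *EGR1*, *MYC*, *ETV5*, *CCND1*, *DUSP4*, *DUSP5* and *DUSP6* are among those above 0, with *DUSP5* at 0.01. The genes drawn were picked after their values were seen.

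The AP-1 motif TGANTCA, searched on both strands, was in 1 of 19 windows of the AP-1 list, which belongs to *FOSL2*. It was in 10.9% of 156 windows of the lower genes outside the interferon list, in 9.15% of 142 windows of the higher genes and in 4.95% of all windows of measured genes. Over all 35116 reference windows, of genes measured or not, the share was 7.71%. These AP-1 shares were not compared by a test or matched on level. The *FOSL2* window is shown because it is the match within the AP-1 list. It lies at chr2:28392608-28392907 on the plus strand of GRCh38.p14, with the motif in capitals. The gene itself was named for this reason, after its value was seen, and had a log2 fold change of -0.69 (-0.78 to -0.60).
FOSL2: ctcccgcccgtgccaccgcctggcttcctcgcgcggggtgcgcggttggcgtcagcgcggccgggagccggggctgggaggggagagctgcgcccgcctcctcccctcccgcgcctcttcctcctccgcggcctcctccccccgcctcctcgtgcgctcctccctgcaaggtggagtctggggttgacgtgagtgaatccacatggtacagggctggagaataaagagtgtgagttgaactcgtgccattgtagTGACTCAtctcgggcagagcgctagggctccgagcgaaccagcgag

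Growth factor ligands had the lowest median of the lists outside the interferon and metallothionein genes, -0.55. Of 31 listed, 20 were measured and 6 were lower past 2-fold, where the background outside the interferon list was 1.32%, with 0 higher. *TGFA*, a ligand of the EGF receptor, went from 109.9 CPM in control to 32.2 CPM in shFLI1 cells (-1.77, -1.89 to -1.66). *BDNF*, a neurotrophin, went from 28.3 to 11.1 CPM (-1.34, -1.55 to -1.14). *VEGFC*, the lymphatic growth factor, went from 23.4 to 8.85 CPM (-1.40, -1.63 to -1.18). *MDK* and *BTC* were lower as well, at -1.03 and -1.06. *HBEGF*, another ligand of the EGF receptor, had 0.76 (0.55 to 0.99) and was named after its value was seen. The list's median was -0.12 without a filter on counts, which adds members under 100 counts in both libraries. What moved it was not tested.

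Receptors did not move as a group. Of 20 measured receptor tyrosine kinases, 2 were higher and 2 lower past 2-fold, with a median of -0.07. The backgrounds were 1.11% higher and, outside the interferon list, 1.32% lower. *ERBB4*, a neuregulin receptor, went from 6.45 to 14 CPM (1.1, 0.81 to 1.42), and *FGFR4* had 35 and 140 counts (1.21, 0.71 to 1.83). *ROR2*, a receptor of WNT5A, had 179 and 110 counts (-1.43, -1.81 to -1.10), and *MERTK*, which binds GAS6 on dying cells, had 103 and 67 (-1.33, -1.83 to -0.91). *EPHA2*, an ephrin receptor of the axon guidance list, was far more abundant and went from 590.4 to 279.8 CPM (-1.08, -1.12 to -1.04). Of 22 measured guidance receptors it was the member lower past 2-fold, and *PLXNA4*, with 36 and 147 counts, the member higher. Among 25 measured guidance ligands, *SEMA5A* and *SEMA3F* were lower past 2-fold, at -1.78 and -1.37, and 0 were higher.

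Of 47 listed NF-kB genes, cytokines and chemokines, which are separate from the interferon list, 22 were measured. Of these, 7 were lower past 2-fold, where the background outside the interferon list was 1.32%, and 0 higher, while 6 lay above 0 and the median was -0.53. *CXCL8*, the neutrophil chemokine IL-8, had 328 counts in control and 201 in shFLI1 cells (-1.44, -1.72 to -1.20). *IL11*, a cytokine of the IL-6 family, had 524 and 319 counts (-1.46, -1.67 to -1.26). *RELB*, a subunit of NF-kB, went from 16.9 to 7.08 CPM (-1.25, -1.52 to -1.0). *TNFAIP2*, a TNF-induced gene, went from 267.1 to 119.4 CPM (-1.16, -1.22 to -1.10). *CSF1*, the macrophage growth factor, was named after its value was seen, just past the threshold, at 417.3 and 208.1 CPM (-1.0, -1.05 to -0.96). *NFKBIZ*, with 103 and 74 counts, had -1.19 (-1.68 to -0.78), which became 0.03 with the authors' FPKM. In U87MG, *IL11* had 91 counts in control and 602 in shFLI1 cells, a log2 fold change of 1.76 (1.45 to 2.1), while *CXCL8* had -1.85 (-2.16 to -1.58).

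**Figure D4:**
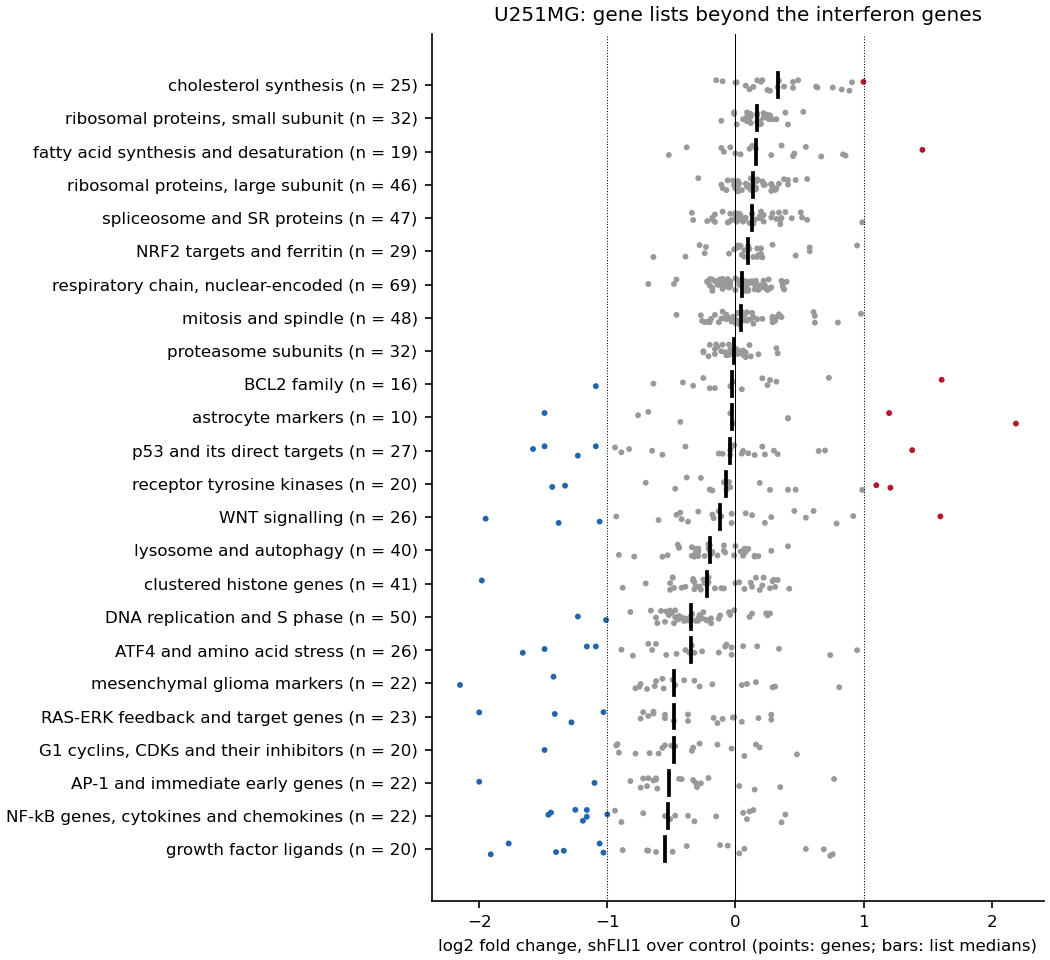
Log2 fold change of shFLI1 over control in U251MG for the measured members of 24 gene lists, ordered by median. Points are genes, red where higher and blue where lower past 2-fold, black bars are list medians and dotted lines mark 2-fold. Medians run from -0.55 for growth factor ligands to 0.33 for cholesterol synthesis. The lists drawn were picked after their values were seen.

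Cell cycle genes are given by phase. Of 50 genes of DNA replication and S phase, all 50 were measured, 45 were below 0 and the median was -0.35. Past 2-fold 0 were higher and 2 lower, *CDT1* and *RRM2*, where the background of lower genes outside the interferon list was 1.32%. *CDT1*, which licenses replication origins, went from 62.9 to 26.8 CPM (-1.23, -1.36 to -1.10). *RRM2*, a subunit of ribonucleotide reductase, went from 286.3 to 142.0 CPM (-1.01, -1.07 to -0.95). Of 20 measured G1 cyclins, kinases and inhibitors, 16 were below 0, with a median of -0.48. The member past 2-fold was an inhibitor, *CDKN1A* (p21), which went from 137.8 to 49.1 CPM (-1.49, -1.58 to -1.40). *E2F1* and *E2F2*, factors that switch on S phase genes, had -0.92 and -0.93, and *CCND3*, cyclin D3, had -0.91. The 48 genes of mitosis and spindle had a median of 0.04, with 29 above 0 and 0 past 2-fold. *CENPE*, a kinetochore motor, was the highest of them at 0.98 (0.83 to 1.13), and *UBE2C*, an enzyme of mitotic exit, was the lowest at -0.46.

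Of 41 measured genes of the histone list, 27 were below 0, with a median of -0.22. Replication-dependent histone transcripts lack a poly(A) tail, and the study's methods describe poly-T purified RNA. The deposited data nevertheless include 31346 circular RNA records, and the histone gene *H2AC18* had 938.3 CPM in control. How far the libraries were limited to polyadenylated RNA was not tested. Nor was the part of each histone value that comes from polyadenylated forms.

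Genes of the p53 list moved both ways, with a median of -0.04, or 0.04 with total counts, over 27 measured genes. *CDKN1A*, *FAS*, *GADD45B* and *PMAIP1* were lower past 2-fold, where the background outside the interferon list was 1.32%. *FAS*, a death receptor, had 214 and 118 counts (-1.58, -1.94 to -1.28). *PMAIP1* (NOXA), which neutralises MCL1, went from 40.8 to 19.2 CPM (-1.09, -1.25 to -0.93). The member higher past 2-fold was *ZMAT3*, an RNA-binding protein induced by p53, which went from 13.8 to 36 CPM (1.38, 1.18 to 1.59). Of 16 measured genes of the BCL2 family, *PMAIP1* was the member lower past 2-fold and *BMF*, a pro-apoptotic member, the one higher, at 1.61 (1.12 to 2.24) from 33 and 175 counts. In U87MG *BMF* had 71 and 31 counts, below the minimum of 100, and a log2 fold change of -2.08. *BCL2* itself had 109 and 137 counts (-0.41, -0.79 to -0.04). Among 19 measured caspases and death receptors, 1 was lower past 2-fold and 0 were higher, which was *FAS*. *TNFRSF21*, named here from the same list, lay just inside the threshold at -1.0.

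Lineage genes were split. *GFAP* (Entrez gene 2670, chromosome 17, 44903159 to 44915500), the intermediate filament of astrocytes, had 364 counts in control and 2808 in shFLI1 cells, or 20.4 and 93.8 CPM. Its log2 fold change was 2.19 (2.04 to 2.36). *FABP7*, a fatty acid binding protein of radial glia, had 50 and 197 counts (1.20, 0.78 to 1.71). *SLC1A3*, the glial glutamate transporter GLAST, went the other way with 135 and 79 counts (-1.49, -1.94 to -1.11). *CLU* and *GLUL* had -0.76 and -0.68, and over the 10 measured astrocyte markers the median was -0.03, or 0.04 with total counts. Neural progenitor and proneural markers had a median of 0.13 over 10 genes, with 0 past 2-fold and *SOX2* at 0.31. Mesenchymal glioma markers had a median of -0.48 over 22 genes, 16 of them below 0. *ACTA2*, smooth muscle actin, had 419 and 156 counts (-2.15, -2.45 to -1.91). *SPP1*, osteopontin, was the highest member at 0.81 (0.77 to 0.85).

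Matrix and adhesion genes included abundant transcripts. *THBS1*, thrombospondin 1, went from 3981.2 to 1951.7 CPM (-1.03, -1.04 to -1.01) and was the member past 2-fold among 28 measured matrix glycoproteins, whose median was -0.16. *ITGA5*, the fibronectin receptor subunit, went from 268.5 to 112.7 CPM (-1.25, -1.32 to -1.19) and was the member past 2-fold among 14 measured integrins, while *ITGB8*, which activates latent TGF-beta, had 0.94 (0.89 to 1.00). Of 20 measured collagens, *COL8A1* and *COL11A1* were lower at -1.33 and -1.24, and *COL6A3* was higher at 1.00 (0.87 to 1.14). Cadherins and junction genes were split, with 5 lower and 2 higher of 33. The backgrounds were 1.32% lower outside the interferon list and 1.11% higher. *CLDN1*, a tight junction protein, went from 34.1 to 12.3 CPM (-1.47, -1.66 to -1.28), and *PCDHB2*, a clustered protocadherin, went from 18 to 43.5 CPM (1.27, 1.1 to 1.45).

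Secreted developmental signals also differed. In the lists of this paragraph, counts past 2-fold stand against backgrounds of 1.32% lower outside the interferon list and 1.11% higher. In the WNT list 26 of 49 genes were measured, with 3 lower and 1 higher past 2-fold and a median of -0.12. *LGR5*, the R-spondin receptor, had 297 and 127 counts (-1.95, -2.29 to -1.67), *FZD4*, a WNT receptor, 570 and 367 (-1.38, -1.58 to -1.19), and *DKK1*, a secreted WNT inhibitor, 3279 and 2639 (-1.06, -1.14 to -0.99). *SFRP4*, another secreted inhibitor, was higher, with 60 and 311 counts (1.6, 1.22 to 2.05). Among 36 measured TGF-beta and BMP genes, 4 were lower and 0 higher, and *FST*, the activin antagonist follistatin, had -1.45 (-1.78 to -1.15). In the NOTCH list, *HES4*, a repressor of the HES family, went from 80.6 to 24.8 CPM (-1.70, -1.83 to -1.57) and was the member past 2-fold among 17.

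Stress genes downstream of ATF4, the factor of amino acid and endoplasmic reticulum stress, had a median of -0.35 over 26 measured genes. Of these, 21 were below 0, 4 were lower past 2-fold, where the background outside the interferon list was 1.32%, and 0 higher. *GDF15*, a stress cytokine, went from 128.8 to 40.6 CPM (-1.66, -1.77 to -1.56), and *DDIT3* (CHOP), a pro-apoptotic factor, from 26.7 to 9.42 CPM (-1.49, -1.72 to -1.29). *STC2* and *CHAC1* had -1.16 and -1.09. *SLC7A11*, the cystine transporter, was the highest member at 0.95 (0.86 to 1.05), from 66.8 to 129.5 CPM. In U87MG the list had a median of -0.65, with 2 of 26 genes above 0. The unfolded protein response list had a median of -0.04, or 0.03 with total counts, over 27 genes and 1 member lower past 2-fold, *DNAJB9* at -1.0 (-1.24 to -0.77). Of 5 measured members of the metallothionein list, 4 were below 0, with a median of -0.78 and 0 past 2-fold. *MT2A*, a zinc-binding metallothionein, went from 227.9 to 124.3 CPM.

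Of 52 lists with a measured member, 19 had no member past 2-fold, 740 measured genes in all. Not all of these were housekeeping lists, and their medians ran from -0.78 for the metallothionein list to 0.17. The housekeeping programmes that follow lay near 0. All 32 proteasome subunits were measured, with a median of -0.01, or 0.06 with total counts, and values between -0.25 and 0.33. The 51 ubiquitin conjugation enzymes had a median of 0.06, the 69 nuclear-encoded genes of the respiratory chain 0.05, the 23 glycolysis genes 0.04 and the 27 heat shock chaperones -0.09. None of the 14 identifiers matched to the list of mitochondrially encoded genes was measured. All 14 were absent from the table or had 0 counts in both U251MG libraries. Of the ribosomal proteins, 38 of 46 large subunit genes and 29 of 32 small subunit genes had values above 0, with medians of 0.14 and 0.17, inside the quartiles of all measured genes, and 0 past 2-fold. Their U87MG medians were -0.12 and -0.15. The 41 Arp2/3, WAVE and actin regulators had a median of 0.08 and the 44 endocytosis genes -0.04, or 0.03 with total counts. The member past 2-fold among the endocytosis genes was *DNM3*, a dynamin, with 193 and 801 counts (1.3, 1.08 to 1.54), which became -0.24 with the authors' FPKM. The 41 components of PI3K, mTOR and AMPK signalling had a median of 0.02.

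Single genes with the largest differences follow. Outside the interferon list, *TXNIP* (chromosome 1, 145992435 to 145996579), an inhibitor of thioredoxin and of glucose uptake, went from 236.8 to 18.3 CPM (-3.68, -3.82 to -3.56). *IGFBP4*, a binding protein of insulin-like growth factors, went from 71.4 to 5.91 CPM (-3.57, -3.83 to -3.37). *NT5E*, the ectoenzyme CD73 that makes adenosine, went from 71.5 to 14.1 CPM (-2.33, -2.50 to -2.18). *HCP5*, a non-coding gene of the major histocompatibility region, had 127 and 2 counts, a log2 ratio between -9.80 and -4.85. *SLC15A3*, a peptide and histidine transporter of lysosomes, had 358 and 21 counts (-4.66, -5.55 to -4.21). *TNFSF15*, *ATP10A*, *LINC03105*, *PLAAT4*, *PSMB8-AS1*, *ABI3BP*, *FOXF1*, *ZNF488* and *DHRS2* had log2 fold changes between -3.70 and -2.11. The list of interferon-linked genes is not complete, and whether these genes belong with it was not tested.

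Among the higher genes, the non-coding LOC105370870 on chromosome 15 had 1 count in control and 736 in shFLI1 cells, a log2 ratio between 6.29 and 14.08. *MAP2K6*, a kinase that activates p38, had 108 and 700 counts (1.93, 1.65 to 2.25). *ACO1*, the cytosolic aconitase that also binds iron-responsive elements, had 356 and 1844 counts (1.62, 1.46 to 1.79). Its deposited FPKM values, 12.9 in control and 19.5 in shFLI1 cells, gave a smaller rise. *TMEM170B*, *TRMT9B*, *GNAT2*, *HSD3BP4*, *GPLD1* and *CYP1B1*, which metabolises estrogens and aryl hydrocarbons, had log2 fold changes between 1.57 and 2.01. *KRT13*, a keratin of stratified epithelia, had 16 and 118 counts (2.02, 1.38 to 2.99), whereas in U87MG it had 46 and 17.

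Several values depend on how reads were assigned. *SULT1A3* had 0 counts in control and 128 in shFLI1 cells, at least 25.4-fold higher, while its near-identical copy *SULT1A4* had 114 and 47. Summed, the pair had 114 and 175 counts, a log2 fold change of -0.13 (-0.48 to 0.22). *U2AF1*, a splicing factor, and its copy LOC102724594 had 958 and 1856 counts together (0.21, 0.09 to 0.32), against 0.99 for *U2AF1* alone. *RGPD5*, one of a family of close copies, had 1.68 and is uncertain for the same reason. *KRT81* and *KRT86*, hair keratins of near-identical sequence, had 4287 and 2200 counts together (-1.71, -1.79 to -1.64), so that pair was lower either way. The most abundant gene past 2-fold was *PARP2*, named after its value was seen, with 258517 and 194055 counts and a log2 fold change of -1.16. Its RefSeq mRNA records alone had 2238 and 3833 counts and a log2 fold change of 0.05. The rest of its counts came from other RNAs listed under the same gene identifier.

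A few genes were described whatever their values, among them *ISG15*, *CDKN1B*, *CASP8* and *MAPK14*, whose products the study examined. *ISG15* went from 925.4 to 67.0 CPM, and *NES*, the intermediate filament nestin of neural progenitors, from 393.4 to 637.2 CPM (0.70, 0.66 to 0.74). *ACTR2*, a subunit of the Arp2/3 complex, went from 220.4 to 319.0 CPM (0.53, 0.48 to 0.59). *CDKN1B*, which encodes p27, went from 46.4 to 52.0 CPM (0.16, 0.04 to 0.29). *CASP8* had 21.7 and 19 CPM (-0.19, -0.38 to 0.00), but its deposited FPKM values were 14.6 in control and 16.6 in shFLI1 cells, the opposite direction. *MAPK14*, which encodes p38 alpha, had 86.6 and 78.4 CPM (-0.14, -0.24 to -0.05). The last 5 of these genes were within 2-fold, and transcript levels say nothing of phosphorylated or total protein.

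Other ETS factors were compared because *FLI1* belongs to their family. Of 24 listed, 16 were measured, with a median of -0.02 (0.05 with total counts) and 0 past 2-fold. The lowest was *ETV5*, an ERK-induced factor, which went from 2515 to 2716 counts, or 141.1 to 90.7 CPM (-0.64, -0.72 to -0.56). Of 21 genes known as FLI1 targets in other cells, 9 were measured, all 9 below 0, with a median of -0.33 and 0 past 2-fold. This list was not split into genes that FLI1 activates and genes that it represses. Whether the values run with the known direction of regulation was not tested. In U87MG the same 9 genes had a median of 0.04, with 5 above 0, 2 higher and 1 lower past 2-fold. The ETS motif CCGGAAGT, searched on both strands, was in 7.88% of all windows of measured genes, in 1.41% of 142 windows of the higher genes and in 1.92% of 156 windows of the lower genes outside the interferon list. These shares were not compared by a test or matched on level.

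Fold changes also ran with transcript properties. In 5 equal groups of measured genes by longest annotated transcript, the median log2 fold change went from -0.06 for the shortest to 0.13 for the longest. In 5 equal groups by GC content it went from 0.13 for the lowest to -0.09 for the highest. U87MG showed -0.11 and 0.14 by length and 0.15 and -0.15 by GC content. Genes higher past 2-fold had a median longest transcript of 5245 bases and a median GC content of 46.0%. Genes lower outside the interferon list had 3518 bases and 51.8%, and all measured genes 4025 bases and 48.9%. The trend could be removed only for genes with an annotated length and GC content. These were 99 of the 135 higher and 253 of the 265 lower genes. Among genes with both properties, 92 were higher and 240 lower past 2-fold after the trend was removed. What produced the trend was not tested.

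**Figure D5:**
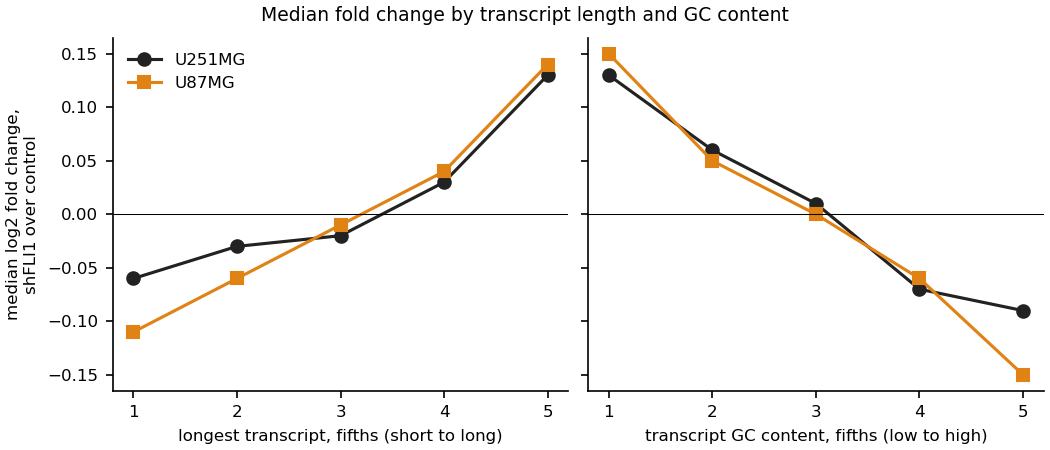
Median log2 fold change of shFLI1 over control in 5 equal groups of the genes measured in U251MG, by longest transcript in the left panel and by GC content in the right panel. Black circles are U251MG and orange squares U87MG. Both lines run upwards with length and downwards with GC content, with medians between -0.15 and 0.15.

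Values from U87MG were set beside the U251MG calls. The U87MG libraries share no sample with those of U251MG. Of 86 genes that were higher in U251MG and also measured in U87MG, 73 were above 0 there and 24 were higher past 2-fold, where 1.91% of all 11164 genes measured in both lines were. The median U87MG log2 fold change of the 86 was 0.77. In U87MG too the shFLI1 library was the deeper one, with 21250153 counts against 12229780 in control. Genes near the minimum thus entered more readily in both lines when they were higher in shFLI1 cells. How much of the overlap among higher genes came from this was not tested. Of 114 genes lower in U251MG outside the interferon list, 101 were below 0 in U87MG and 42 were lower past 2-fold, where the background was 2.26%, with a median of -0.77. Examples among the members named above are *TXNIP*, *IGFBP4*, *GDF15*, *VEGFC*, *CXCL8*, *CDKN1A*, *NT5E*, *FOXF1* and *HES4*, lower past 2-fold in U87MG too, and *GFAP*, *FABP7*, *MAP2K6*, *ZMAT3*, *DNM3* and LOC105370870, higher past 2-fold in both lines.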

How the data were processed

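RNA, poly-T purified according to the study's methods, was sequenced by the authors, 1 library per sample. Reads were aligned with HISAT2 and quantified with StringTie per the study's methods, and the submitters' processing notes name GRCh38.p13. The deposited table holds estimated counts and FPKM per transcript record as made by the authors. Columns of TPM and of means across lines, 10 in number, were left aside. Here, linear records were summed by gene identifier, scaled by TMM (edgeR 4.0.16, R 4.3.3), and expressed as CPM and log2 CPM with 2 as the prior count. The minimum was 100 counts in 1 U251MG library, and "past 2-fold" was the only call, since each arm has 1 library. Intervals were Clopper-Pearson at 95% (scipy 1.17.1), and a count of 0 to 3 was taken as the floor. Named genes were the 15 highest and 15 lowest with a symbol outside the interferon list, a few single genes, and up to 6 members of each list. The members and lists were chosen with earlier results of these data known. The scripts were tested on simulated data. DESeq2 1.42.0 size factors, other filters, priors, thresholds, FPKM and thinning were alternatives. Promoter windows came from RefSeq. Mitochondrially encoded genes were not measured here, and some genes that the rules name are not reported here.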

Additional observations from a re-analysis of the deposited data

Results flagged for a closer look

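The results below had opposite signs in U251MG and U87MG cells, with counting intervals on opposite sides of 0 for single genes. With 1 library per arm in each line, the difference between the lines was not tested. By these rules the genes reported number 7 and the lists 7.

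*INSIG1* had a log2 fold change of 1.00 in U251MG and -0.87 in U87MG, and *SCD* had 1.46 and -0.57. The median of the cholesterol list was 0.33 in U251MG and -0.29 in U87MG, and that of the fatty acid list 0.16 and -0.17. *DUSP4* had -1.28 and 0.17, and the median of the RAS-ERK list was -0.48 and 0.23. *IL11* had -1.46 and 1.76, and *FZD4* -1.38 and 0.64. *COL11A1* had -1.24 and 1.40, and the median of the collagen list was -0.16 and 0.10. *RGPD5*, which shares reads with close copies, had 1.68 and -0.47. The list of NRF2 targets and ferritin had a median of 0.10 in U251MG and -0.48 in U87MG. The ribosomal proteins of the large subunit had 0.14 and -0.12, and those of the small subunit 0.17 and -0.15. U251MG medians here are over all members measured in U251MG, and U87MG medians over members measured in both lines. Over the members measured in both, the U251MG medians were 0.22 for the fatty acid, -0.43 for the RAS-ERK and -0.1 for the collagen list.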

How the results depend on the processing

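The counts of genes past 2-fold depended on the filter and the threshold. The 135 genes higher past 2-fold became 1015 with a minimum of 10 counts, 2744 without a filter, 85 with a mean of at least 5 CPM, 691 at 1.5-fold and 52 when the whole counting interval had to lie past 2-fold. The 265 genes lower past 2-fold became 763, 2567 and 699 with 10 counts, without a filter and at 1.5-fold. The 158 genes lower past 2-fold without interferon-linked members became 634, 2433 and 577 under the same settings and 105 with the deposited FPKM values, taken as log2 of the value plus 1. With FPKM the medians were -0.15 for the RAS-ERK list, -0.36 for the AP-1 list, -0.36 for the NF-kB list, -0.32 for the G1 list, -0.25 for the ATF4 list and 0.32 for the fatty acid list, and *FLI1* had -1.17. The growth factor ligand median was -0.12 without a filter, and the ATF4 median was -0.25 with the length and GC trend removed. With FPKM, *DNM3* had -0.24, *DUSP10* 0.07 and *NFKBIZ* 0.03, the 3 named genes past 2-fold whose sign changed, and the cause was not tested. Named genes within 2-fold, such as *CASP8* at 0.18, *GADD45A* and *COL7A1*, changed sign with FPKM as well. Of the list medians under all alternatives, 639 stayed between the medians of the members' lower and upper counting bounds and 37 lay outside. mRNA records alone, TMM without interferon-linked genes and removal of the length and GC trend were chosen after seeing the data. No paired analysis was possible because each arm has 1 library, and for the same reason no replicate could be left out.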

Other observations

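Clustered protocadherins, neuronal adhesion proteins encoded in tandem arrays, were examined after their values were seen. Of 15 *PCDHB* genes 11 were measured, but 5 of them had under 100 counts in control and so entered through the shFLI1 library. The summed *PCDHB* counts over all 15 were 1976 in control and 5885 in shFLI1 cells, a log2 fold change of 0.83 (0.75 to 0.90), and in U87MG the sum had 0.43. Of 22 *PCDHG* genes 18 were measured, of which 12 had under 100 counts in control. Over the genes with a mean of at least 5 CPM, 7 *PCDHB* and 10 *PCDHG*, the median log2 fold changes were 0.72 and 0.55. The summed *PCDHG* counts had a log2 fold change of 0.42 (0.37 to 0.47), and -0.06 in U87MG. *PCDHG* genes share their last exons, so reads could be split between them.

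A pair of abundant genes outside the lists was also noted after the values were seen. *DST*, the cytoskeletal linker dystonin, went from 415.8 to 950.5 CPM, a log2 fold change of 1.19. *IGFBP5*, a binding protein of insulin-like growth factors, went from 1301.4 to 495.4 CPM, a log2 fold change of -1.39, and had -1.29 in U87MG.

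The most abundant measured identifier with a log2 fold change above 2 has no gene symbol in the reference table. URS00009B1B74 had 1447 counts in control and 20464 in shFLI1 cells, or 81.2 and 683.4 CPM, which is 3.07 on the log2 scale (3.00 to 3.15), and in U87MG it had 1.14. It was picked after its value was seen.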
